A study of Mus musculus with 75 samples.

Results

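The carboxylesterase genes *Ces1d*, *Ces1e*, *Ces1f*, *Ces1g*, and *Ces2c* are 5 of the 32245 genes in a count table of 75 mouse kidney libraries. They were selected by name, because *Ces1d* differed most clearly between the obstructed kidneys of *Pdgfb* knockout and control mice. For that reason every difference that rests on the obstructed kidneys of the *Pdgfb* mice is given as a description, without a test. The rule of selection did not use the other mice, and there the genes were tested together with all other genes. Earlier results of these data were, however, known when the genes were chosen.

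Whole-kidney RNA of adult mice was sequenced 3 days after unilateral ureteral obstruction (UUO), in which 1 ureter is tied off and the contralateral kidney (CL) serves as the comparison. In the first arm, mice received control human IgG Fc (IgG; 8 CL and 8 UUO libraries) or ABTAA, an antibody that binds ANGPT2 and activates the endothelial receptor TIE2 (ABT; 7 CL and 7 UUO). In the second arm, *Veptp*, which encodes a phosphatase that acts on TIE2, was deleted with a tamoxifen-inducible *Cdh5*-CreERT2, a driver limited to endothelial cells (VeKO; 6 CL and 8 UUO), and the controls were mice with a floxed *Veptp* allele and the same Cre that had not been induced (VeWT; 7 CL and 8 UUO). In the third arm, *Pdgfb* was deleted in all tissues with a tamoxifen-inducible Cre under a ubiquitous promoter (PbKO; 4 CL and 4 UUO), and the controls were floxed mice without Cre (PbWT; 4 CL and 4 UUO). Mice of both sexes were used in all arms. The knockout lines were on a mixed background, and the first arm used C57BL6/J mice or wild-type mice bred with those lines. Kidneys of sham-operated mice are among the PbWT CL libraries, and the labels do not mark them or say which CL and UUO kidneys came from the same mouse.

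Carboxylesterases are serine hydrolases of the endoplasmic reticulum that cleave ester and amide bonds. They process drugs and other foreign compounds, and several of them act on stored lipids. *Ces1d* encodes a triacylglycerol hydrolase known from liver and fat, where it helps to mobilize stored triglyceride. *Ces1e* encodes a liver esterase that binds β-glucuronidase, *Ces1f* a further liver esterase that acts on lipids, and *Ces1g* the hydrolase whose loss in mice alters liver and blood lipids. *Ces2c* belongs to the second subfamily, whose members hydrolyze acylglycerols and drug esters in intestine, liver, and kidney. In the kidney, proximal tubule cells are the cells best known for esterase and other drug-processing enzymes.

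The genes lie on mouse chromosome 8 in 2 clusters. On the minus strand of GRCm38 (mm10), the GENCODE annotation places *Ces1d* at chr8:93166068-93197838, *Ces1e* at chr8:93201218-93229619, *Ces1f* at chr8:93256236-93279747, and *Ces1g* at chr8:93302369-93337308, each with 14 exons. *Ces2c* lies on the plus strand at chr8:104847068-104854483 and has 12 exons. Because reads of such related genes may be hard to assign, the coding bases around the active-site serine are shown. Capitals mark the 18 bases of the 6 codons of the active-site motif, and each run holds 72 coding bases, 5′ to 3′ on the coding strand.
Ces1d: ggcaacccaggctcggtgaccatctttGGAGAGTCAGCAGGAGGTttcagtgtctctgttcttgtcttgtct
Ces1e: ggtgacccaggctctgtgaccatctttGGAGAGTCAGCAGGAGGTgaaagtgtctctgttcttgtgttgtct
Ces1f: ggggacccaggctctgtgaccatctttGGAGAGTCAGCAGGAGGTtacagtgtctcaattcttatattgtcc
Ces1g: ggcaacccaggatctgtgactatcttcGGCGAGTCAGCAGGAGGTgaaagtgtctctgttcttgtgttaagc
Ces2c: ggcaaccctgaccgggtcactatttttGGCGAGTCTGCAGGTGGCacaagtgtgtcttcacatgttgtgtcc

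In the 4 *Ces1* genes the run crosses from exon 5 into exon 6 (chr8:93186110-93187805 in *Ces1d*, intron included), and in *Ces2c* it lies within exon 5 (chr8:104850741-104850812). The *Ces1e* run shares 65 of 72 bases with *Ces1d*, *Ces1f* shares 63, *Ces1g* shares 59, and *Ces2c* shares 50. Within the capitals *Ces1e* and *Ces1f* have the bases of *Ces1d*, *Ces1g* differs at 1 base, and *Ces2c* at 4. Over the whole coding sequence, identity among the *Ces1* genes ran from 75.6% (*Ces1f* and *Ces1g*) to 81.8% (*Ces1d* and *Ces1g*), and *Ces2c* shared 64.3% to 66.5% with them.

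In windows of 50 and 75 bases the *Ces1* genes were nearly unique, and *Ces2c* was not. Every window of 50 bases in each gene's longest coding transcript was looked up in the GENCODE transcripts of all other genes. A window was also found in another gene for 1.28% of the *Ces1d* windows, 3.21% of *Ces1e*, 1.60% of *Ces1f*, and 1.67% of *Ces1g*. For *Ces2c* the share was 42.2%, mostly with *Ces2d-ps* (38.2%) and *Gm8798* (18.9%), neither of which has a row in the count table analysed here. At 75 bases the share was 0% for *Ces1d*, *Ces1f*, and *Ces1g*, 1.05% for *Ces1e*, and 25.9% for *Ces2c*. The sources used here do not say how reads with several matches were counted, and to that extent the counts of *Ces2c* are uncertain.

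**Figure D1:**
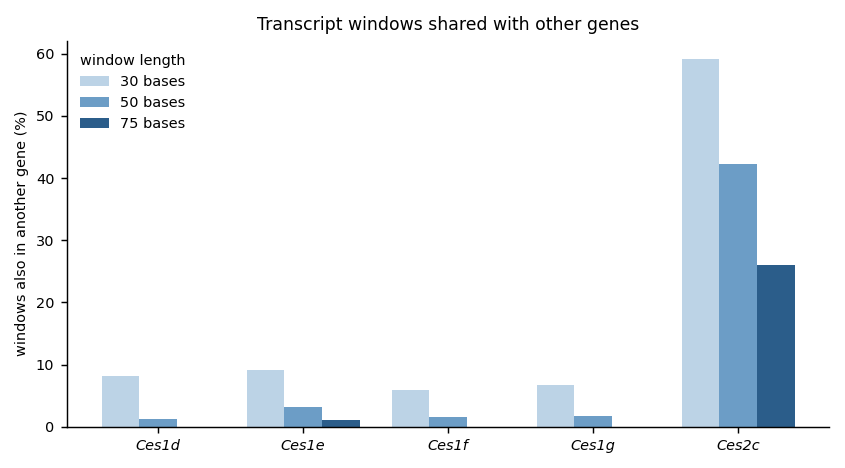
Share of all windows of 30, 50, or 75 bases (bars, percent on the y axis) in the longest coding transcript of each gene (x axis) that also occur in a transcript of another gene. *Ces2c* stands above the 4 *Ces1* genes at each length, with 59.1%, 42.2%, and 25.9%.

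Library totals ran from 172827 to 2341800 counts, with a median of 757897, and low counts limit what the weaker genes can show. Over the 75 libraries *Ces1f* had 27229 counts, *Ces2c* 18217, *Ces1d* 16591, *Ces1e* 2781, and *Ces1g* only 278. *Ces1g* was at 0 counts in 22 libraries, had at most 33.2 CPM in the ABTAA and 26.8 CPM in the *Veptp* arm, and passed the filter on low counts only in the *Pdgfb* arm, so 4 of the 5 genes could be tested in the other arms. Library names come in 2 forms, with a separator (_) between letter and number (30 libraries) and without (45); the labels do not say what the forms mean, all *Pdgfb* libraries are of the second form, and results are given within each form where it mattered. Counts of the targeted genes cover the whole gene and are a weak check of the deletions: *Ptprb*, the gene of VEPTP, had a median of 26.0 CPM (counts scaled to a common library total) in VeKO UUO and 38.8 in VeWT UUO libraries, and *Pdgfb* 37.3 in PbKO UUO and 55.7 in PbWT UUO libraries, but 17.3 in PbKO CL and 8.62 in PbWT CL libraries. Sex is not in the labels. The female transcript *Xist* and the summed level of *Uty*, *Kdm5d*, *Eif2s3y*, and *Ddx3y*, genes of the Y chromosome, were both at 20 CPM or more in 23 libraries, while 28 passed this level for *Xist* alone and 24 for the Y genes alone. A mouse kidney is not known to express both at such levels, so it cannot be taken as given that each of these 23 libraries, which include all 4 of PbKO UUO and 22 without a separator, holds RNA of a single mouse. Without those of the ABTAA and *Veptp* arms, obstruction left 4 genes called in IgG, 3 in ABT, 3 in VeWT, and 2 in VeKO mice, with the call of *Ces2c* lost in ABT (log2 fold change -1.08, SE 0.42, adjusted p = 0.0835) and VeWT mice (-1.19, SE 0.48, adjusted p = 0.107), where it was -0.85 and -1.25 with all libraries. The share of all genes called in these fits, in either direction, was 23.6% in IgG, 16.3% in ABT, 14.3% in VeWT, and 9.12% in VeKO mice. The PbKO UUO values cannot be given without them. In the *Veptp* arm, 8 numbers are shared by a CL and a UUO library with a separator, and the 2 libraries of each number were alike in *Xist* and Y genes at this level in 8 of 8 cases, but for 4 of the numbers (3, 4, 7, and 8) 1 library is labelled VeKO and the other VeWT. The labels do not say whether a number marks a mouse, so results of this arm are also given without these libraries. VeKO CL replicate 2 had 1599 CPM of 5 summed markers of injured tubule, above the other CL libraries; without it and VeKO CL replicate 1, obstruction changed *Ces1d* in VeKO mice by -1.55 and *Ces1e* by -1.89, both still called.

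Levels are given below in CPM after 1 TMM scaling over all 75 libraries. *Ces1d* was high in every CL kidney and lower in most obstructed kidneys. Its group medians stood in the order PbWT CL (445), VeKO CL (438), ABT CL (427), IgG CL (390), PbKO CL (383), VeWT CL (342), PbKO UUO (305), VeKO UUO (128), ABT UUO (115), VeWT UUO (92.2), IgG UUO (85.2), and PbWT UUO (36.3). The range of each group overlapped that of its neighbours in this order, and the 6 CL groups overlapped one another, with single libraries from 269 to 641 CPM. Per kilobase of transcript, the median in IgG CL kidneys was 195 CPM for *Ces1d*, 184 for *Ces1f*, 100.1 for *Ces2c*, 34.6 for *Ces1e*, and 1.31 for *Ces1g*. The counts are of molecules, and the sources used here do not say whether these scale with transcript length.

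**Figure D2:**
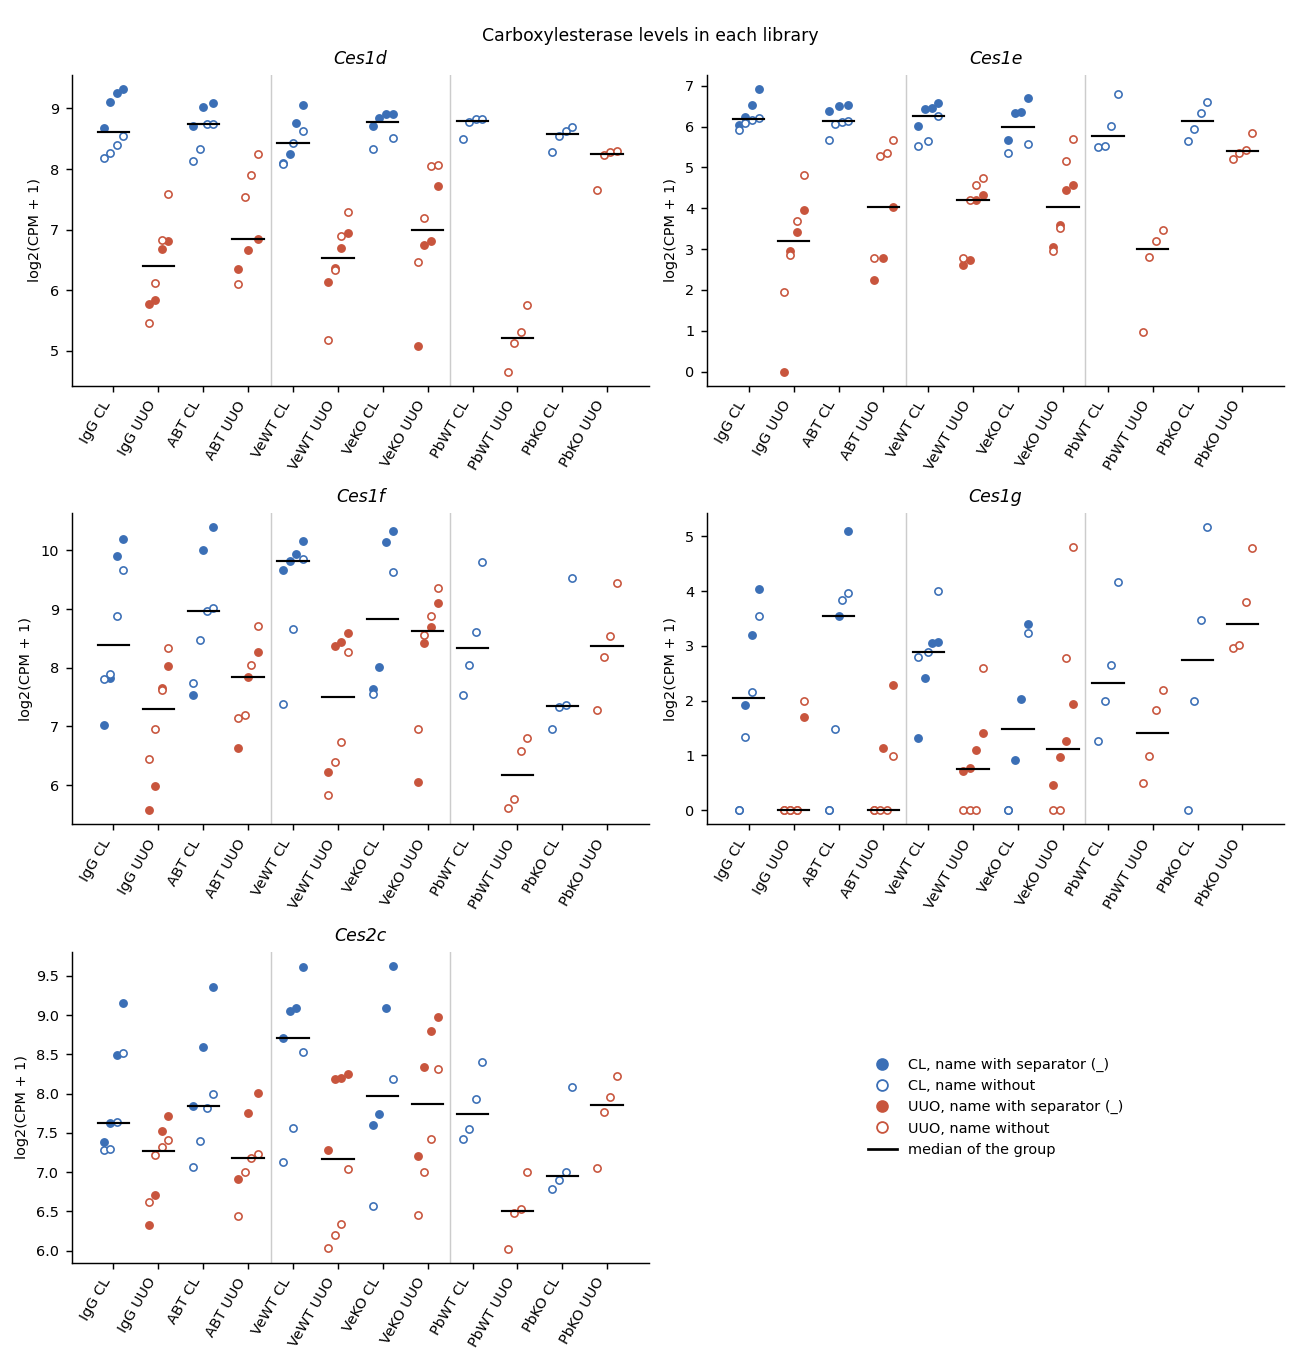
Level of each gene in each of the 75 libraries (y axis, log2 of CPM + 1) by group (x axis), with CL kidneys in blue, UUO kidneys in red, filled points for library names with a separator, open points for names without, and a bar at the group's median. For *Ces1d* the PbKO UUO libraries sit between 201 and 315 CPM and the PbWT UUO libraries between 24.3 and 53.1 CPM.

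*Ces1d*, the triacylglycerol hydrolase, fell with obstruction in IgG mice. Its level was 290, 390, and 641 CPM (lowest, median, and highest of 8) in CL and 43.3, 85.2, and 191 CPM (of 8) in UUO libraries. No UUO library reached the lowest CL library. The log2 fold change was -2.19 (SE 0.28, edgeR adjusted p = 1.52e-07). *Ces1e*, the β-glucuronidase partner, moved from 59.8, 71.7, and 121 CPM in CL to 0, 8.22, and 27.0 CPM in UUO libraries, again without overlap, and its log2 fold change was -2.81 (SE 0.38, edgeR adjusted p = 3.65e-07).

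*Ces1f* and *Ces2c* also fell in IgG mice, but their groups overlapped. *Ces1f* had 129, 354, and 1175 CPM in CL and 46.7, 160, and 322 CPM in UUO libraries, and 4 of the 8 UUO libraries stood at or above the lowest CL library. Its log2 fold change was -1.65 (SE 0.44, edgeR adjusted p = 0.00363). *Ces2c* had 154, 197, and 571 CPM in CL and 79.0, 154, and 209 CPM in UUO libraries, with a log2 fold change of -0.88 (SE 0.29, edgeR adjusted p = 0.0188), a call that was lost without IgG CL replicate 7 (adjusted p = 0.0898). Thus 4 of the 4 tested genes were lower in the obstructed kidney, where 18.2% of all genes tested were called lower. Their median log2 fold change was -1.92, against 0.02 over all 9579 genes tested. *Ces1d* changed by -2.73 (SE 0.22) in the libraries with a separator and by -1.51 (SE 0.32) in those without. The call of *Ces2c* was also lost without TMM scaling (adjusted p = 0.0890), where the median of all genes was 0.23 instead of 0.02, after thinning all libraries to the depth of the shallowest (0.0833), and in the libraries without a separator (0.186).

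In VeWT mice, the controls of the second arm, the same 4 genes fell. *Ces1d* had 269, 342, and 533 CPM in CL and 35.2, 92.2, and 156 CPM in UUO libraries, with no overlap and a log2 fold change of -1.89 (SE 0.30, edgeR adjusted p = 4.02e-05). For *Ces1e* the change was -2.24 (SE 0.35, edgeR adjusted p = 3.76e-05), also without overlap. *Ces1f* changed by -1.82 (SE 0.50, edgeR adjusted p = 0.00934) and *Ces2c* by -1.25 (SE 0.43, edgeR adjusted p = 0.0400), each with 4 of 8 UUO libraries at or above the lowest CL library. All genes tested in this arm gave 8.38% called lower, with a median log2 fold change of -0.01. The call of *Ces2c* was lost in 9 of the 29 fits that left out 1 library, 4 of VeWT CL and 5 of VeWT UUO, with adjusted p-values from 0.0561 to 0.116, and also without TMM scaling (0.155), after thinning (0.103), and with the Y genes as a covariate (0.0669). In that last fit *Ces2c* changed by -0.81 (SE 0.31). The median of *Xist* was 0.668 CPM in VeWT CL and 304 CPM in VeWT UUO libraries. That of the summed Y genes, which *Ces1f* and *Ces2c* followed across the series (below), was 151 and 40.5 CPM. Within each form of library name all 4 genes were called, with *Ces1d* at -1.96 (SE 0.34) with a separator, where 25.6% of all genes were called in either direction, and -1.68 (SE 0.32) without, where 14.0% were. Without the libraries whose number joins opposite genotype labels, *Ces1d* (-1.59, SE 0.38, edgeR adjusted p = 0.0108) and *Ces1e* (-1.98, SE 0.42, edgeR adjusted p = 0.00566) were called, and *Ces1f* (adjusted p = 0.117) and *Ces2c* (adjusted p = 0.267) were not. The share of all genes called in either direction was 7.39% in that fit and 18.4% with all libraries.

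In ABT mice *Ces1d* had 280, 427, and 541 CPM in CL and 68.2, 115, and 302 CPM in UUO libraries. A single UUO library stood above the lowest CL library, and the log2 fold change was -1.42 (SE 0.29, edgeR adjusted p = 2.73e-04). *Ces1e* changed by -1.84 (SE 0.36, edgeR adjusted p = 1.97e-04), *Ces1f* by -1.33 (SE 0.46, edgeR adjusted p = 0.0313), and *Ces2c* by -0.85 (SE 0.31, edgeR adjusted p = 0.0378). The background of genes called lower was 12.5%. These calls depended on which libraries were used. Among the libraries with a separator *Ces1d* changed by -2.30 (SE 0.24) and 3 of the 4 genes were called, where 24.0% of all genes were called in either direction, while among those without it changed by -0.88 (SE 0.30, edgeR adjusted p = 0.0568) and 0 were called, where 11.6% of all genes were called in either direction. At an unadjusted p under 0.05 there were 3 of the 4 genes in those libraries. For this and other fits on part of the libraries, the share of all genes at that level is not given. The call of *Ces1f* was lost without any 1 of ABT CL replicates 6 and 7 and ABT UUO replicates 1, 2, and 5 (adjusted p from 0.0529 to 0.119), and that of *Ces2c* without any 1 of these and of ABT UUO replicates 3 and 4 (adjusted p from 0.0545 to 0.197). *Ces2c* was also not called without TMM scaling (adjusted p = 0.101), with a mean count of at least 20 (0.0715), or after thinning (0.109).

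In VeKO mice 2 of the 4 genes fell, and 3.47% of all genes tested were called lower. *Ces1d* had 321, 438, and 481 CPM in CL and 32.9, 128, and 267 CPM in UUO libraries, which did not overlap, and a log2 fold change of -1.43 (SE 0.31, edgeR adjusted p = 0.00313). *Ces1e* changed by -1.69 (SE 0.37, edgeR adjusted p = 0.00342), with 1 UUO library above the lowest CL library. *Ces1f* had a log2 fold change of -0.74 (SE 0.51, edgeR adjusted p = 0.468) and *Ces2c* of -0.38 (SE 0.45, edgeR adjusted p = 0.718), neither past the threshold. Within the libraries without a separator, which include only 2 of the 6 VeKO CL libraries, *Ces1d* changed by -0.76 (SE 0.37, edgeR adjusted p = 0.710) and no gene of the table was called (0%), with 1 of the 4 genes at an unadjusted p under 0.05. Within those with a separator it changed by -1.96 (SE 0.34, edgeR adjusted p = 2.36e-04). Without the libraries whose number joins opposite genotype labels, 0 of the 4 genes were called in VeKO mice and 2 had an unadjusted p under 0.05, with *Ces1d* at -1.35 (SE 0.40, edgeR adjusted p = 0.104) and *Ces1e* at -1.24 (SE 0.45, edgeR adjusted p = 0.229). Calls were fewer over the whole table too, at 0.979% of genes in either direction in that fit and 7.95% with all libraries.

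ABTAA and deletion of *Veptp* both activate TIE2, and the question for the carboxylesterases was whether their level in the obstructed kidney differed from that of the controls. No gene passed the test. In UUO kidneys of ABT against IgG mice the log2 fold changes were 0.68 (SE 0.29) for *Ces1d*, 0.88 (SE 0.43) for *Ces1e*, 0.47 (SE 0.45) for *Ces1f*, and 0.12 (SE 0.30) for *Ces2c*, each with an edgeR adjusted p of 1.00, and 0% of the 9579 genes tested were called. An unadjusted p under 0.05 was reached by 1 of the 4 genes with this test (*Ces1d*), by 2 with DESeq2, and by 1 of the 3 genes kept by edgeR's exact test, and 0 were called by any of these tests. Over all genes, 340 of 9579 were at this level in the first of these tests. Within the forms the *Ces1d* difference was 0.25 (SE 0.23) with a separator and 0.78 (SE 0.33) without, and *Ces1e* was -0.09 (SE 0.50) and 1.17 (SE 0.48).

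In UUO kidneys of VeKO against VeWT mice the log2 fold changes were 0.66 (SE 0.29) for *Ces1d*, 0.45 (SE 0.36) for *Ces1e*, 0.81 (SE 0.48) for *Ces1f*, and 0.59 (SE 0.42) for *Ces2c*, with edgeR adjusted p-values of 1.00 and 0% of 11916 genes called. Of the 4 genes, 1 had an unadjusted p under 0.05 in this test (*Ces1d*), 1 in DESeq2, and 0 in the exact test, and 0 were called by any of these tests. Over all genes, 426 of 11916 were at this level in the first of these tests. The difference in *Ces1d* was 0.26 (SE 0.34) with a separator and 0.96 (SE 0.31) without. Without the libraries whose number joins opposite genotype labels it was 0.55 (SE 0.36), and 0 of the 4 genes were called or had an unadjusted p under 0.05, with 0% of all genes called. In both arms the UUO libraries of treated and control mice overlapped for each of the 4 genes.

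The CL kidneys gave 0 called genes as well. In ABT against IgG mice the 4 log2 fold changes lay between -0.09 and 0.14, in VeKO against VeWT mice between -0.27 and 0.20, and in PbKO against PbWT mice, where all 5 genes were tested, between -0.55 (*Ces2c*) and 0.87 (*Ces1g*, SE 0.71). *Ces1g* was kept there by a filter over the whole arm, which includes the UUO libraries that chose the genes. The background was 0% in each of these 3 comparisons. At an unadjusted p under 0.05 there were 0, 0, and 1 (*Ces2c*) of the carboxylesterases with edgeR's quasi-likelihood test, and 0 in each with DESeq2. Over all genes the quasi-likelihood test gave 303 of 9579, 229 of 11916, and 378 of 10923 at this level. The exact test gave 0, 0, and 1, with 4 of the 5 genes tested in PbKO against PbWT CL kidneys. The difference between the responses to obstruction was not called for any of the 4 genes either, with 0% of all genes called in both arms. For *Ces1d* this difference was 0.76 (SE 0.39) in ABT minus IgG mice and 0.46 (SE 0.43) in VeKO minus VeWT mice. None of the 4 genes had an unadjusted p under 0.05 there in edgeR, while DESeq2 gave 1 in the ABTAA arm and 0 in the *Veptp* arm. Over all genes, 315 of 9579 and 324 of 11916 were at this level in edgeR.

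**Figure D3:**
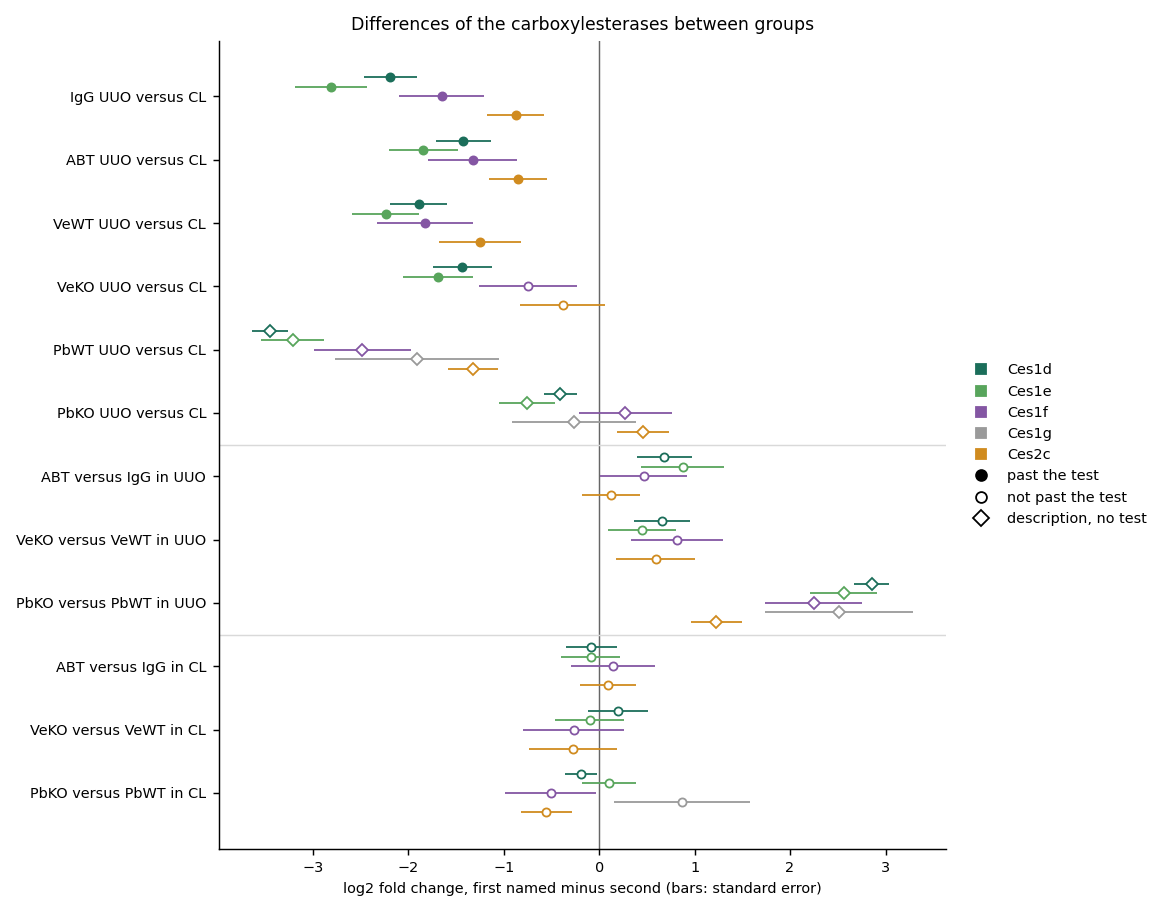
Log2 fold change (x axis, points) with its standard error (bars) for each gene and comparison (y axis); filled circles passed the test at an adjusted p of 0.05, open circles did not, and open diamonds are descriptions without a test. For obstruction the points lie between -2.81 and -0.38 in the IgG, ABT, VeWT, and VeKO mice.

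The *Pdgfb* arm holds the contrast by which the genes were chosen. *Ces1d* in UUO libraries was 38.6, 34.0, 53.1, and 24.3 CPM in PbWT and 315, 300, 310, and 201 CPM in PbKO mice. The CL libraries had 437, 454, 358, and 453 CPM in PbWT and 312, 395, 415, and 371 CPM in PbKO mice. Thus all PbKO UUO libraries stood above all PbWT UUO libraries, and 1 of them stood above the lowest PbKO CL library. The log2 fold change of PbKO against PbWT in UUO kidneys was 2.85 (SE 0.19). Obstruction changed *Ces1d* by -3.45 (SE 0.19) in PbWT and by -0.41 (SE 0.17) in PbKO mice.

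The other 4 genes were also higher in the PbKO UUO libraries, and no test was applied to them. Of the 10923 genes of this arm, 12% were called higher and 6.58% lower in this contrast (edgeR adjusted p under 0.05). *Ces1e* had 8.24, 5.97, 9.99, and 0.972 CPM in PbWT and 56.3, 36.1, 42.1, and 40.1 CPM in PbKO UUO libraries, a log2 fold change of 2.56 (SE 0.35). *Ces1f* had 111, 94.4, 53.5, and 47.7 CPM against 696, 372, 291, and 155 CPM, a log2 fold change of 2.25 (SE 0.51). For all 5 genes the PbKO and PbWT UUO libraries did not overlap, and the share of all genes without overlap was not computed. *Ces1g*, with 1 to 6 counts in PbWT and 6 to 15 in PbKO UUO libraries, differed by 2.51 (SE 0.78). *Ces2c* had 127, 91.4, 88.3, and 64.2 CPM against 298, 247, 217, and 131 CPM, a log2 fold change of 1.23 (SE 0.26), the smallest of the 5. Summed markers of injured tubules ran from 2026 to 2519 CPM in PbKO and from 2958 to 3939 CPM in PbWT UUO libraries, and those of macrophages from 321 to 390 and from 439 to 662 CPM. Neither sum overlapped between the groups, and their part in the result was not tested.

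Transcripts that mark sex moved with part of these values. The summed Y chromosome genes stood at 87.6 to 112 CPM in the 4 PbKO UUO libraries, all of which also held *Xist* (45.6 to 232 CPM) and may therefore not be kidneys of single mice, and at 139, 43.6, 0.40, and 0.972 CPM in the PbWT UUO libraries. With the Y genes as a covariate, the difference between PbKO and PbWT UUO kidneys was 2.96 (SE 0.20) for *Ces1d* and 2.21 (SE 0.33) for *Ces1e*, but 1.35 (SE 0.31) for *Ces1f*, 1.52 (SE 0.50) for *Ces1g*, and 0.79 (SE 0.20) for *Ces2c*. The PbKO CL libraries did not have this even level: their Y genes were at 154, 2.53, 0, and 0.996 CPM. Replicate 1, the library at 154 CPM, had 742 CPM of *Ces1f* and 34.9 CPM of *Ces1g*, while the other 3 had 123 to 165 CPM of *Ces1f* and 0 to 10.1 CPM of *Ces1g*.

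Across the whole series the 5 genes fell into 2 patterns by this measure. After the mean of each library's group and name form was removed from log2(CPM + 1), *Ces1f* followed the summed Y genes with a Spearman's rho of 0.88 over the 75 libraries and *Xist* with -0.82, and *Ces2c* with 0.84 and -0.80. For *Ces1g* the values were 0.53 and -0.46. *Ces1d* had rho of -0.0014 and -0.11, and *Ces1e* of 0.15 and -0.26. These are descriptions, since CL and UUO kidneys can come from 1 mouse and share its sex.

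In the fits across all genes, with group and name form in the model, *Ces1f* rose by 0.27 on the log2 scale for each log2 unit of the summed Y genes in the ABTAA arm (SE 0.02, edgeR adjusted p = 4.67e-15) and by 0.34 in the *Veptp* arm (SE 0.03, edgeR adjusted p = 4.50e-11). *Ces2c* rose by 0.15 (SE 0.02, edgeR adjusted p = 4.38e-10) and by 0.19 (SE 0.02, edgeR adjusted p = 1.41e-07). The slope of *Ces1d* was -0.02 (SE 0.03) and 0.02 (SE 0.03), and that of *Ces1e* 0.01 (SE 0.03) and 0.03 (SE 0.04), none past the threshold. Thus 2 of the 4 genes were called in each arm, where 6.00% and 8.37% of all genes were called in either direction. In the *Pdgfb* arm, whose libraries chose the genes, the slopes are a description: 0.51 (SE 0.08) for *Ces1g*, 0.31 (SE 0.04) for *Ces1f*, 0.14 (SE 0.03) for *Ces2c*, 0.11 (SE 0.04) for *Ces1e*, and -0.04 (SE 0.03) for *Ces1d*. These p-values treat the kidneys of 1 mouse as separate samples.

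**Figure D4:**
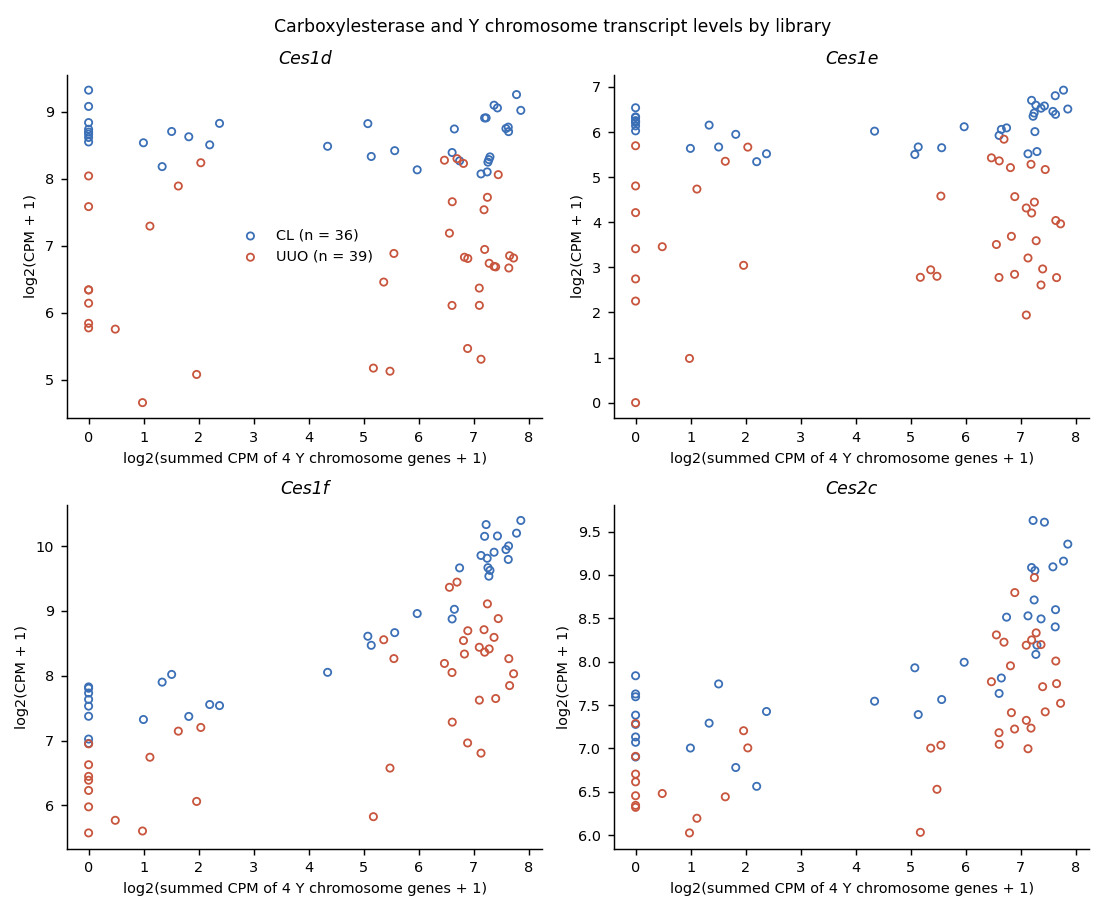
Level of *Ces1d*, *Ces1e*, *Ces1f*, and *Ces2c* (y axes, log2 of CPM + 1) against the summed level of 4 Y chromosome genes (x axes, log2 of CPM + 1), 1 point per library, 36 CL in blue and 39 UUO in red. *Ces1f* and *Ces2c* rise with the Y genes in both kinds of kidney, and *Ces1d* does not (rho 0.88, 0.84, and -0.0014 after group means are removed).

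The spread of *Ces1f* within groups was wide. In ABT CL kidneys it ran from 184 CPM, in a library with 0 CPM of the Y genes and 669 CPM of *Xist*, to 1347 CPM, in a library with 231 CPM of the Y genes and 4.59 CPM of *Xist*. In VeKO UUO kidneys it ran from 65.8 to 658 CPM, with Y genes at 2.90 and 93.3 CPM. With *Xist* as a covariate, *Ces1f* passed the test for obstruction in VeKO mice (log2 fold change -1.06, edgeR adjusted p = 0.0404), as did *Ces2c* (-0.75, edgeR adjusted p = 0.0235), so that 4 of 4 genes were called there instead of 2, while the share of all genes called in either direction was 12.6% instead of 7.95%. With the Y genes as the covariate *Ces1f* passed (-0.94, edgeR adjusted p = 0.0203) and *Ces2c* did not (-0.59, edgeR adjusted p = 0.270).

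The genes whose levels varied most like each member's were found in the same way, among 7836 other genes with a mean of at least 20 CPM (7837 for *Ces1g*, which is itself below this mean). For *Ces1d* they were *Atp6v1a* (rho 0.67), which encodes a subunit of the proton pump of acidic compartments, *Aldh6a1* (0.66), an enzyme of valine breakdown, and *G6pc* (0.65), glucose-6-phosphatase of gluconeogenesis. For *Ces1e* they were *Mmut* (0.65), methylmalonyl-CoA mutase, *Ces1d* (0.63), and *F13b* (0.59). For *Ces1f* they were *Ldhd* (0.96), a D-lactate dehydrogenase, *Acsm2* (0.96), an acyl-CoA synthetase, and *Cyp4b1* (0.95), a cytochrome P450. *Ces2c* had *Ces1f* (0.94), *Ldhd* (0.94), and *Nat8* (0.92) nearest, and *Ces1g* had *Bcat1* (0.61), *Tmigd1* (0.61), and *Ces1f* (0.61). *Ces1d* and *Ces1f* varied together only weakly (0.17).

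Markers of the proximal tubule fell in the same kidneys. The summed level of the 12 markers, which include the phosphate transporter *Slc34a1* and the endocytic receptor *Lrp2*, ran from 7529 to 12249 CPM in CL and from 2141 to 7731 CPM in UUO libraries, and *Slc34a1* and *Lrp2* were counted in all 75. Of the 12, 11 were called lower in IgG, 10 in ABT, 7 in VeWT, and 6 in VeKO mice, with median log2 fold changes of -1.27, -0.87, -0.78, and -0.73. Over all genes, 18.2%, 12.5%, 8.38%, and 3.47% were called lower in these mice, and 16.3%, 12.6%, 10%, and 4.47% higher. The 5 markers of injured tubule, with *Havcr1* (log2 fold change 7.03 in IgG mice, SE 0.33), were called higher in all 4. In bulk kidney, fewer cells of a type and less RNA per cell cannot be told apart.

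Set against the summed proximal tubule markers, the medians of *Ces1d* were lower in the obstructed kidneys of every group but PbKO, while the medians of *Ces2c* were higher in 5 of 6 groups and those of *Ces1f* in 4 of 6. *Ces1d* per 1000 CPM of these markers had a median of 44.1 CPM in IgG CL and 23.9 CPM in IgG UUO libraries, 49.1 and 29.0 in ABT, 42.0 and 18.8 in VeWT, and 41.5 and 24.6 in VeKO mice. In PbWT mice it was 37.6 to 50.2 in CL and 9.37 to 18.1 in UUO libraries, and in PbKO mice 32.1 to 44.6 in CL and 41.7 to 47.4 in UUO libraries. The PbKO UUO range thus overlapped that of the PbKO CL libraries and lay above that of the PbWT UUO libraries. The summed markers themselves were at 2141 to 3089 CPM in PbWT UUO and 4280 to 7556 CPM in PbKO UUO libraries. For *Ces1f* the medians were 36.2 in CL and 44.7 in UUO libraries of IgG mice, and 104.9 and 42.2 in VeWT mice. For *Ces2c* they were 20.2 and 42.6 in IgG, 27.1 and 31.2 in ABT, 30.6 and 43.4 in VeKO, 23.0 and 31.5 in PbWT, and 13.9 and 35.2 in PbKO mice, and 49.2 and 33.8 in VeWT mice, the group in which the median was lower with obstruction. These ratios were not tested.

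**Figure D5:**
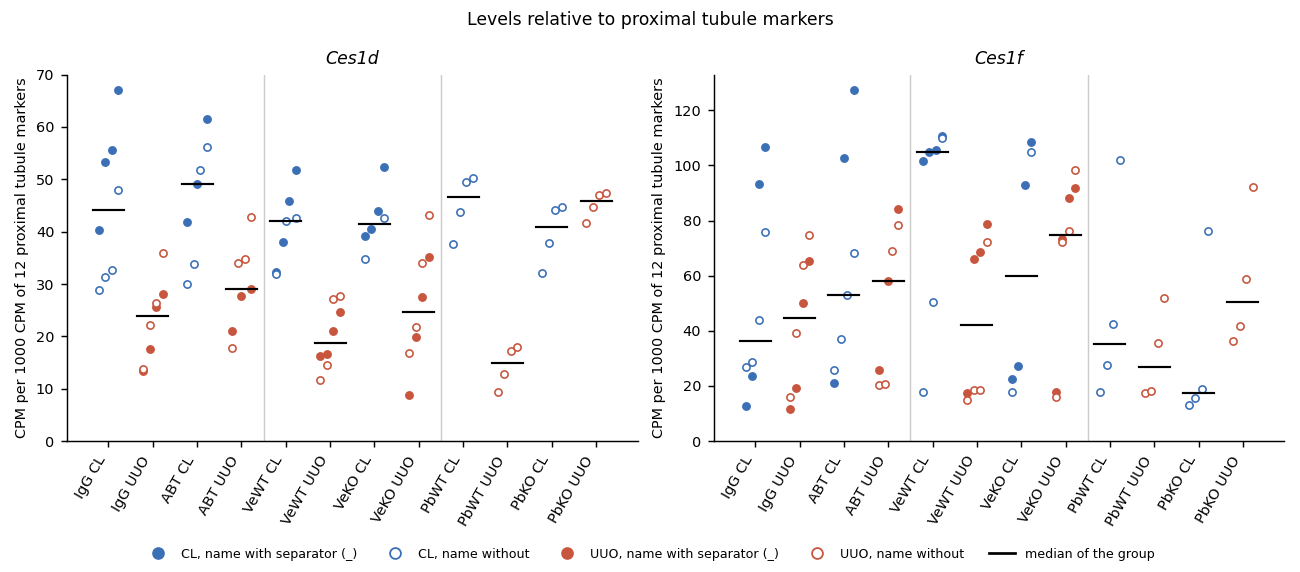
*Ces1d* (left) and *Ces1f* (right) in CPM per 1000 CPM of 12 summed proximal tubule markers (y axes, from 0), 1 point per library by group (x axes), bars at the medians, colors and filling by kidney and name form. The PbKO UUO libraries sit between 41.7 and 47.4 for *Ces1d* and the PbWT UUO libraries between 9.37 and 18.1.

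*Ces1d* is also known from fat and liver, so markers of these were read in the same libraries. Of 9 adipocyte markers 2 or 3 could be tested in the ABTAA and *Veptp* arms, and 1 was called higher with obstruction in IgG mice and 0 in the other 3 groups. The defining marker *Adipoq* was at 0 counts in 24 of the 75 libraries and *Plin1* in 49. The summed level of all 9 adipocyte markers was 93.5 to 97.2 CPM in PbWT UUO and 30.4 to 432 CPM in PbKO UUO libraries. It was 11.5 to 464 CPM in the CL libraries of the *Veptp* and *Pdgfb* arms. In the ABTAA arm it was 25.1 to 366 CPM in CL and 64.5 to 663 CPM in UUO libraries, and 8.35 to 256 CPM in the UUO libraries of the *Veptp* arm. The 7 hepatocyte markers summed to 160 to 277 CPM in PbWT UUO and 219 to 527 CPM in PbKO UUO libraries, and *Alb* was at 0 counts in 3 libraries, with at most 75 counts in any. Of the 3 hepatocyte markers tested in the ABTAA arm, 1 was called higher and 1 lower with obstruction in both IgG and ABT mice, and of the 5 tested in the *Veptp* arm, 1 higher and 1 lower in VeWT and 1 higher and 0 lower in VeKO mice. The part of these cells in the *Ces1d* values was not tested. Of the 6 macrophage markers, 6 were called higher with obstruction in IgG, 5 in ABT, 5 in VeWT, and 4 in VeKO mice, and 0 were called lower. Shares of all genes called higher or lower are given above with the proximal tubule markers.

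Among the other carboxylesterases, 14 of the 15 listed had a row and most were barely counted. *Ces2b*, *Ces2e*, and *Ces2g*, with 1158, 2043, and 351 counts in all, had at least 10 counts in 40, 62, and 10 libraries, and the remaining 11 had between 4 and 98 counts. *Ces2b*, at 2.92 to 62.9 CPM, was lower with obstruction in IgG (-1.06, SE 0.33, edgeR adjusted p = 0.0112), ABT (-0.99, SE 0.32, edgeR adjusted p = 0.0198), and VeWT mice (-2.05, SE 0.33, edgeR adjusted p = 4.69e-05), and had -1.06 (SE 0.36, edgeR adjusted p = 0.0632) in VeKO mice. *Ces2e*, at 5.98 to 69.4 CPM, was not called in any of them, with log2 fold changes between -0.39 and 0.49. *Ces2g*, at 0 to 16.6 CPM, was tested in the *Veptp* arm and not called.

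Of 11 other esterases and epoxide hydrolases listed, 9 were tested, of which 6 were lower with obstruction in IgG, 5 in ABT, 3 in VeWT, and 0 in VeKO mice, and 0 were higher in any. Over all genes, 18.2%, 12.5%, 8.38%, and 3.47% were called lower in these mice. The median log2 fold changes of the 9 listed genes were -0.55, -0.47, -0.32, and -0.27. The genes with the lowest adjusted p were *Cmbl*, which hydrolyzes drug esters, with -1.51 (SE 0.17, edgeR adjusted p = 2.22e-08) in IgG and -1.33 (SE 0.29, edgeR adjusted p = 0.00139) in VeWT mice, *Bphl* with -0.98 (SE 0.14) and -0.96 (SE 0.21), and *Ephx2*, the soluble epoxide hydrolase, with -0.80 (SE 0.26) and -1.05 (SE 0.29).

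Genes of neutral lipid turnover were also tested for obstruction. Of the 17 listed, 14 were tested in the ABTAA arm, where 7 were lower and 1 higher with obstruction in IgG mice and 4 lower and 1 higher in ABT mice. In the *Veptp* arm 16 were tested, of which 1 was lower and 1 higher in VeWT mice and 2 lower and 0 higher in VeKO mice. Over all genes, the shares called lower and higher were 18.2% and 16.3% in IgG and 12.5% and 12.6% in ABT mice. They were 8.38% and 10% in VeWT and 3.47% and 4.47% in VeKO mice. *Lpl*, lipoprotein lipase, was called lower in all 4 groups, with -1.42 (SE 0.21, edgeR adjusted p = 1.32e-06) in IgG and -1.35 (SE 0.27, edgeR adjusted p = 5.69e-04) in VeWT mice as examples. None of these genes, and none of the other esterases, was called between treated and control UUO kidneys in either arm.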

How the data were processed

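RNA of 75 whole kidneys was sequenced in pooled plate wells. Per the labels and the study's methods, each sample filled 4 wells, whose reads the authors joined before aligning them with STAR 2.7.3a to mm10, and they collapsed duplicate reads of a molecule with UMI-tools 1.1.4 and counted genes with featureCounts of Subread 1.4.6-p5. The deposited table holds raw counts of molecules per gene. For the gene annotation and the treatment of reads with several matches: not given in the sources used here. Columns were matched to samples by title. The members and gene lists were chosen with earlier results of these data known.

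Each arm was fitted in edgeR 4.0.16 (R 4.3.3) with TMM factors, filterByExpr, and the quasi-likelihood test, and p-values were adjusted by Benjamini-Hochberg over all genes tested in the arm, at a threshold of 0.05. edgeR's exact test, used in the study, and DESeq2 1.42.0 were alternatives. The standard error is the log2 fold change divided by the square root of F. For the carboxylesterases, contrasts with *Pdgfb* UUO libraries were not tested. Printed CPM use TMM factors over all 75 libraries. Scripts were tested on simulated data. Named genes were the members, the 3 genes most like each, and the list genes with the lowest adjusted p among those called in IgG and VeWT mice. Totals of 172827 to 2341800 counts set the precision. The labels list replicates as separate samples but do not name the mice, and the fits treat all libraries as independent. In the ABTAA arm, library numbers shared by CL and UUO libraries with a separator paired them (correlation of deviations 0.46, 0.24, and 0.20), from the data and not the labels; a replicate block over these libraries gave 4 carboxylesterases called for obstruction in ABT mice, as did the same libraries without it, with 2840 and 2205 of 9056 genes called. Alternatives are in the closing section. Genes and sequences are from GENCODE on GRCm38, read with Biopython 1.88.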

Additional observations from a re-analysis of the deposited data

Results flagged for a closer look

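Among 60 combinations of gene and group, 7 held a library far from the others by Dixon's test; chance gives about 1 in 20. *Ces1d* was highest in IgG UUO replicate 2, at 191 CPM (71 counts), with the next library at 113 CPM. *Ces1d* was lowest in PbKO UUO replicate 4, at 201 CPM (256 counts), against 300 CPM in the nearest library. PbKO CL replicate 1 stood apart in *Ces1f*, at 742 CPM against 165 CPM in the next library, and in *Ces2c*, at 270 CPM against 127 CPM; it also had the highest level of Y chromosome genes in its group (154 CPM).

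The other 3 were *Ces1g* at very few counts: ABT UUO replicate 7 at 3.89 CPM (2 counts), VeKO UUO replicate 1 at 26.8 CPM (4 counts), and VeWT UUO replicate 3 at 5.01 CPM (2 counts).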

How the results depend on the processing

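Depth and the 2 forms of library name limit these results, and sex is not in the labels. Under most alternatives the number of carboxylesterases called stayed within 1.5 times the main count. With only the libraries without a separator, 0 genes were called for obstruction in ABT and 0 in VeKO mice; with *Xist* as a covariate 4 were called in VeKO mice. The replicate block by library number in the *Veptp* arm, where same-numbered libraries correlated at 0.097 to 0.55 but 4 of 8 numbers join opposite genotype labels, gave 4 genes called for obstruction in VeKO mice, *Ces1f* at -1.71 (edgeR adjusted p = 7.54e-10) and *Ces2c* at -0.67 (0.000785) among them, with 3317 of 12556 genes called over the table against 2651 without the block in the same libraries. It gave 1 for VeKO against VeWT in CL kidneys (*Ces1d*, 1.22, edgeR adjusted p = 0.0265), where 7 of the 12556 genes (0.0558%) were called. Without those 4 numbers 0 carboxylesterases were called for obstruction in VeKO and 2 in VeWT mice, and of all 11034 genes tested 108 and 815 were called, against 947 and 2194 of 11916 with all libraries. The block changed no other count of calls by over 1.5 times. Leaving out each library in turn gave 2 to 4 called genes in ABT, 3 to 4 in IgG, 3 to 4 in VeWT, and 2 in VeKO mice, and 0 in each of the other comparisons. For *Ces1d* it gave -3.68 to -3.32 for obstruction in PbWT, -0.49 to -0.27 in PbKO, 2.72 to 3.08 for PbKO against PbWT in UUO, and 2.91 to 3.27 for the difference in response. Without TMM scaling, where the median of all genes was 0.41 for obstruction in PbWT mice (0.04 with it) and -0.29 for the difference in response (-0.00014 with it), *Ces1d* changed by -3.07 and by 2.73.

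Of the alternatives for tested log2 fold changes of single genes, 573 kept direction and call, 24 lost a call, 6 gained one, and 38 turned the sign of a difference that was not called. For the untested contrasts with *Pdgfb* UUO libraries, *Ces1d* is counted apart. Its values without TMM scaling, given above, moved by more than the spread between replicates. Among alternatives for the other genes, 118 kept the sign and moved by less than this spread, 7 moved by more, and 4 turned the sign. Those 4 were for obstruction in PbKO mice: with the Y genes as a covariate *Ces1f* was -0.61 (0.27 without) and *Ces2c* -0.044 (0.46), and *Ces1g* was 0.45 with *Xist* and 0.058 in DESeq2 (-0.26 in edgeR). Of the 7, 6 were with the Y genes, where the difference in response was 1.33 for *Ces1f* (2.75 without), 0.042 for *Ces1g* (1.65), and 1.07 for *Ces2c* (1.78). Those lost were mostly of *Ces2c* for obstruction, given with the results, and in 1 fit of all groups its adjusted p was 0.0899 in ABT and 0.0555 in IgG mice. For the ABT minus IgG response, *Ces1e* was -0.11 with a separator, and *Ces2c* was -0.060 without TMM, -0.013 without a filter, -0.18 with *Xist*, -0.038 after thinning, and -0.057 without a separator. For ABT against IgG in CL, *Ces1d* was 0.15, *Ces1f* -0.12, and *Ces2c* -0.15 without a separator, *Ces1e* 0.023 with one, and *Ces1f* -0.062 and *Ces2c* -0.046 with the Y genes; without libraries that hold both *Xist* and Y transcripts *Ces1d* was 0.045 and *Ces1e* 0.040. In UUO, *Ces1e* was -0.091 with a separator, and *Ces2c* -0.013 with *Xist* and -0.21 without a separator. For the VeKO minus VeWT response, *Ces1d* was -0.0016 with a separator, the same without the block, and under the replicate block *Ces1d* was -1.48, *Ces1f* -0.54, and *Ces2c* -0.070. For VeKO against VeWT in CL, *Ces1e* was 0.023 after thinning and 0.094 without VeKO CL replicates 1 and 2; *Ces1f* was 0.41 with *Xist*, 0.14 with the Y genes, 0.017 without a separator, and 0.43 under the block; *Ces2c* was 0.38 with *Xist*, 0.084 with the Y genes, 0.0044 under the block, 0.0051 without those replicates, and 0.072 without the 4 numbers. In UUO the block gave *Ces1d* -0.26, *Ces1f* -0.11, and *Ces2c* -0.066. For PbKO against PbWT in CL, *Ces1e* was -0.14 after thinning and *Ces1f* 0.018 with the Y genes. The cause was not tested. The Y gene covariate and the fits without VeKO CL replicates 1 and 2, without the 4 numbers, or without libraries holding both transcripts were chosen after seeing the data, and the exact test was not run for differences in response.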
